A study of Mus musculus with 6 samples.

Results

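Retinas taken 7 days after an injection of titanium dioxide nanoparticles into the vitreous, at 10 times a reference dose, were compared with retinas of mice injected with PBS. The comparison rests on 3 of the 6 2-colour arrays of the study, chosen by their titles, and on every gene they measured. The mice were male C57BL/6 animals of 8 weeks, 12 in each group, injected in the right eye, and 4 retinas were pooled in each tube of RNA. The treated pool, labelled 10PTC, carried the red dye Cy5 and the PBS pool the green dye Cy3 on each array. The other 3 arrays held retinas given the reference dose, labelled PTC, against PBS in the same dye order. The labels do not give the dose in mass, nor what PTC stands for, nor whether arrays shared a PBS pool. No array had the dyes swapped, so an effect of the dye on a gene cannot be told apart from an effect of the treatment. All 3 10PTC arrays lay on 1 slide together with PTC array 3, while PTC arrays 1 and 2 lay on another.

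Titanium dioxide nanoparticles are fine mineral particles used in sunscreens, pigments and coatings. The vitreous, into which they were given here, is the gel that fills the eye in front of the retina. The retina holds photoreceptors, which turn light into signals, bipolar, horizontal and amacrine cells, which relay and shape them, and ganglion cells, whose axons form the optic nerve. Müller cells are its main glia. After injury they take up a reactive state known as gliosis, with more of the filament protein Gfap, and microglia, the resident macrophages, become active. Cytokines of the interleukin-6 family act on Müller cells through the receptor subunit Il6st and the factor Stat3, while interferons act through factors such as Stat2 and Irf9 on genes of antiviral defence and antigen presentation.

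After background correction, loess normalization within each array and a filter on dim probes, 26136 genes were tested, of which 19501 matched a current symbol. On the 10PTC arrays 82.1% to 85.5% of the gene probes were brighter than background in Cy3 or Cy5, and none of the spots reached saturation. As a check on the tissue, the retina's own genes were present: all 20 measured genes of rod phototransduction were above background in both channels on the 3 arrays. Values are log2 of 10PTC over PBS, so 1 is a doubling and -1 a halving, and "rose" and "fell" are kept for genes with an adjusted p under 0.05 in a limma fit over the 6 arrays. Replicates are tubes of pooled retinas. If arrays shared a PBS pool, the test against 0 leaves out the spread of the PBS retinas themselves. Between 2 of the 10PTC arrays the PBS channels differed by 0.08 to 0.09 in log2 (scaled median absolute deviation over genes). The 10PTC channels differed by 0.13 to 0.15. Whether a PBS pool was shared was not tested.

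By that test 7232 genes differed between 10PTC and PBS, 27.7% of those tested. Of these 3762 rose, 14.4% of those tested, and 3470 fell, 13.3%. Most shifts were small, with a median size of 0.27 among the called genes, whether up or down. At least a doubling was seen for 91 genes, 0.348% of those tested, and at least a halving for 77, 0.295%. A 4-fold change or more was seen in 8 genes that rose and 18 that fell. All 3 arrays had the same sign for 99.9% of the called genes and for 65.6% of all genes. The median SD over the 3 10PTC arrays was 0.07, against 0.10 over the 3 PTC arrays.

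The number of calls depends on single arrays. Without 10PTC array 1 there were 1357 calls (769 higher, 588 lower), without array 2 5079 (2695, 2384), and without array 3 1565 (864, 701). With the slide as a block 1005 genes were called, 597 higher and 408 lower. All 3 10PTC arrays lay on 1 slide, so this setting takes the shift between slides from the PTC arrays alone. Its values can lie outside all 3 10PTC arrays, and its counts do not measure how well these arrays agree. The 10PTC arrays alone, without the spread of the PTC arrays, gave 9362 calls. Of these 2221 were not called in the 6-array fit, while 91 calls of the 6-array fit were lost. A fit on the arrays of slide 2 gives the same result, since its single PTC array adds nothing to the spread. When the arrays were only centred on their median, in place of loess, 9647 genes were higher and 5009 lower. Array 2 lay closest to 0 of the 3 arrays for 2277 of the 3762 genes that rose and for 2235 of the 3470 that fell. In the 6-array fit a share of 27.7% called is the background for the gene groups below. A group is therefore read by its direction and size as well as by its count. Where a group's count is given for another setting, its background is the count over all 26136 genes in that same setting, given above.

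**Figure D1:**
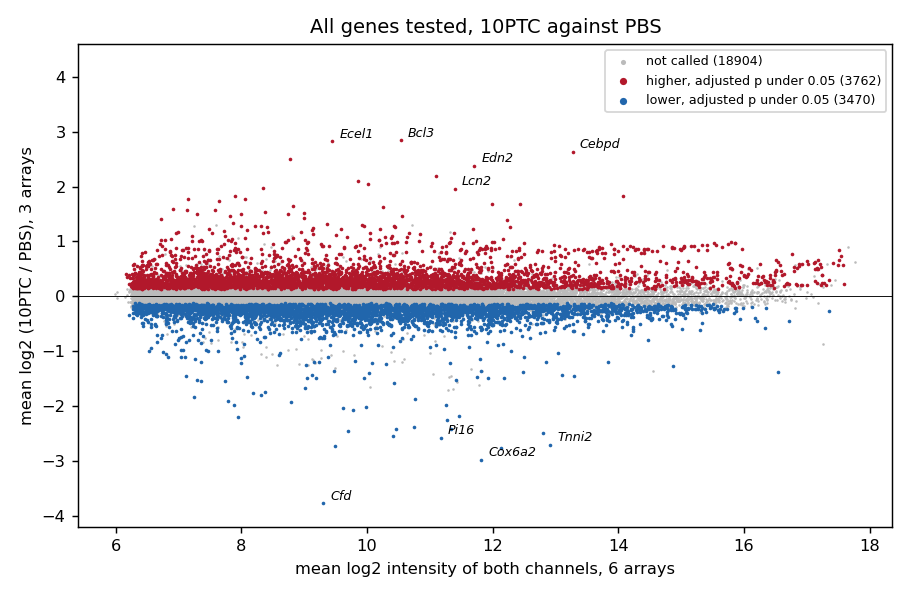
Mean log2 ratio of 10PTC over PBS on 3 arrays (vertical axis) against mean log2 intensity of both channels on 6 arrays (horizontal axis) for 26136 genes. Red points are the 3762 genes that rose, blue points the 3470 that fell and grey points the rest; Cfd at -3.77 is the lowest point and Bcl3 at 2.84 the highest.

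Among the 12 genes that rose most were genes known from reactive glia, from macrophages and from stressed neurons. Bcl3, a nuclear partner of NF-kappa B that Stat3 is known to induce, stood at 2.74, 2.81 and 2.99 on the 3 arrays. Its mean was 2.84 ± 0.13 (SD, n = 3), a 7.18-fold rise with an adjusted p of 0.00272 (probe at chr7:20393826-20393885, mm9, as the files give it). Ecel1, a membrane peptidase known from injured neurons, stood at 2.41, 2.89 and 3.18, a mean of 2.82 ± 0.39 (chr1:89044233-89044292, mm9; adjusted p = 0.00174). Cebpd, a transcription factor of the acute phase, gave 2.89, 2.42 and 2.59. Every array placed these 3 genes above a 5-fold rise, array 2 lowest for Cebpd and array 1 lowest for Bcl3 and Ecel1.

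Prss56, a serine protease that Müller cells make, gave 2.40, 2.98 and 2.101. Edn2, an endothelin that photoreceptors release under stress, gave 2.40, 2.29 and 2.45, the closest agreement among the first 5 genes (SD 0.08). Lyz1, a lysozyme of macrophages, followed at 2.24, 2.12 and 2.23. Timp1, an inhibitor of matrix metalloproteinases, gave 1.98, 2.53 and 1.80, and Serpina3n, a protease inhibitor of reactive glia, gave 1.92, 2.44 and 1.78. For both of them array 2 was highest and array 3 lowest. Clec7a, a receptor for fungal glucans found on active microglia, had a mean of 1.97 ± 0.17. Lcn2, an iron-siderophore carrier of reactive astrocytes, had 1.96 ± 0.48 with array 3 lowest at 1.42. Lilrb4a, an inhibitory receptor of myeloid cells, had 1.83 ± 0.08 on its brighter probe but 0.32 on the other, so its size depends on the probe. Crym, a thyroid hormone binding crystallin of Müller cells, had 1.82 ± 0.15. The adjusted p of these 12 genes was at most 0.00968.

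**Figure D2:**
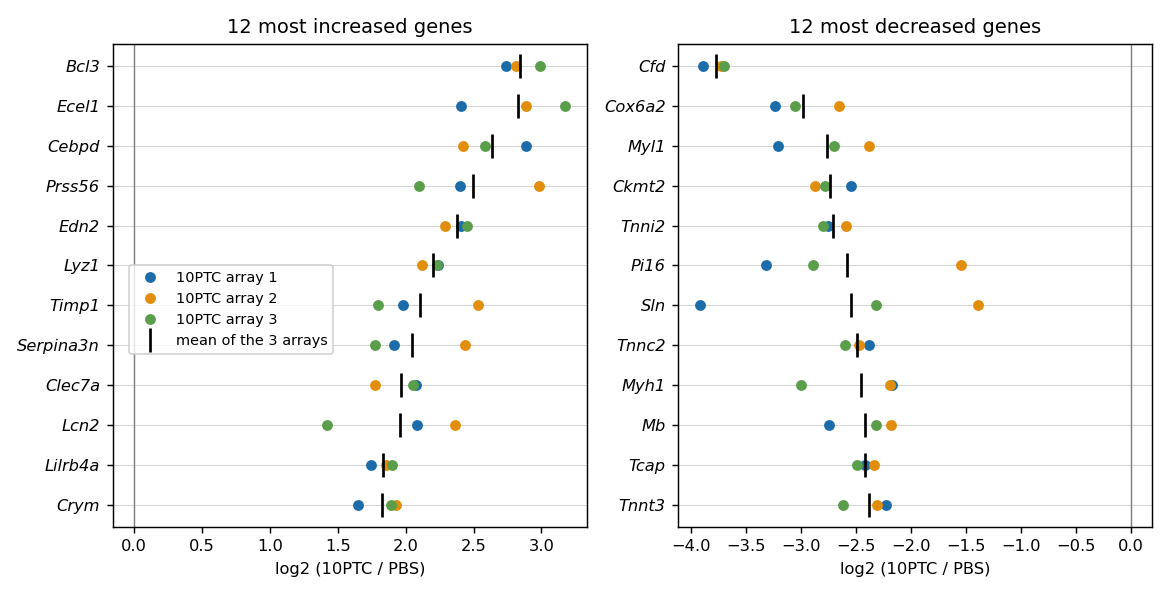
Log2 ratio of 10PTC over PBS for the 12 genes that rose most (left) and the 12 that fell most (right), 1 dot for each of the 3 arrays and a bar at their mean. All dots of a gene lie on the same side of 0; the arrays spread most for Sln, from -3.92 to -1.39, and Pi16, from -3.32 to -1.54.

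The genes that fell most are known from tissues outside the neural retina. Cfd, adipsin, a complement protease secreted by fat cells, gave -3.89, -3.73 and -3.69, a mean of -3.77 ± 0.11 and 13.7-fold less than in PBS (chr10:79355302-79355361, mm9; adjusted p = 0.000581). Cox6a2, the muscle form of a cytochrome oxidase subunit, gave -3.24, -2.65 and -3.05 (chr7:135349160-135349219, mm9). Then came parts of the muscle fibre: the myosin light chain Myl1 at -2.76 ± 0.42, the mitochondrial creatine kinase Ckmt2 at -2.73 ± 0.17 and the fast troponins Tnni2, Tnnc2 and Tnnt3 at -2.71 ± 0.11, -2.48 ± 0.11 and -2.38 ± 0.20. Myh1, a fast myosin heavy chain, was at -2.45 ± 0.47, the oxygen store Mb at -2.41 ± 0.29 and Tcap, which caps titin, at -2.41 ± 0.07. Sln, an inhibitor of the muscle calcium pump, stood at -3.92, -1.39 and -2.31, and Pi16, a fibroblast gene, at -3.32, -1.54 and -2.89. In both, array 2 was nearest 0, and the adjusted p of the 12 genes was at most 0.00816.

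**Figure D3:**
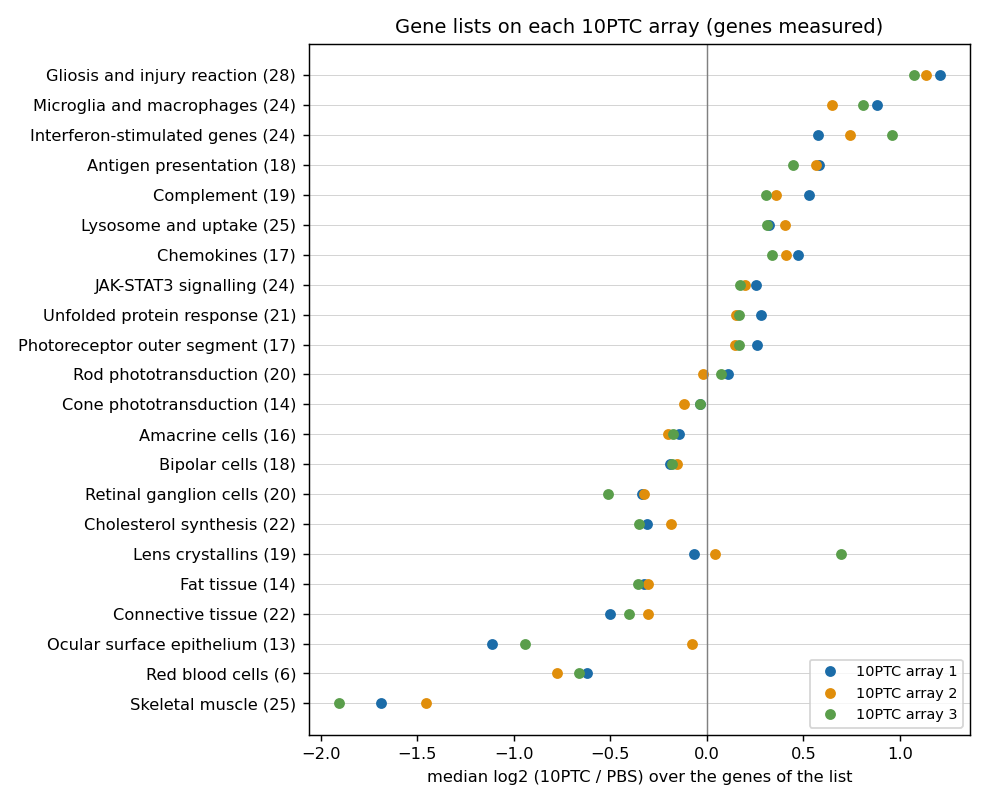
Median log2 ratio of 10PTC over PBS within each of 22 gene lists, 1 dot for each 10PTC array, with the number of measured genes in brackets. The arrays lie close together for most lists, but array 2 stands apart for the ocular surface epithelium (-0.08, against -1.11 and -0.94) and array 3 for lens crystallins (0.69, against -0.06 and 0.04).

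Gliosis and the injury reaction were represented by 28 genes, of which 23 rose. None of them fell, and their median was 1.13 beside 0.00 over all genes. The lists were drawn up with earlier results of these data known, so a high share is in part built in. A gene can stand on several lists, as Bcl3 does on this and the JAK-STAT3 list. The list's median was 1.21, 1.14 and 1.07 on the 3 arrays. Gfap gave 1.30, 1.53 and 1.48, but its 3 probes ranged from 0.25 to 1.83, so its size depends on the probe. Vim, the other filament of Müller cells, gave 0.63, 0.59 and 0.86 (adjusted p = 0.0173). Nes, a filament of immature and reactive glia, stood at 0.64, 0.69 and 0.59 and did not pass (adjusted p = 0.0678). That fit takes its spread from both doses, and in a limma fit of the 10PTC arrays alone Nes passed (adjusted p = 0.000417). Ceruloplasmin (Cp), which oxidises iron, gave 1.83, 1.79 and 1.41, and its other probe 0.65. Fgf2, a survival factor for photoreceptors that Müller cells release, gave 1.35, 1.30 and 1.37, and the chitinase-like Chil1 1.32, 1.26 and 1.10. Without array 1 10 of the 28 genes passed, without array 2 17, without array 3 15 and with the slide as a block 7, while the median stayed between 1.12 and 1.23.

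In the JAK-STAT3 pathway 12 of 24 genes rose, none fell and the median was 0.22. Among the receptors, Osmr, which binds oncostatin M, gave 1.19, 1.24 and 1.05. Il6st, the subunit shared by receptors of the family, gave 0.59, 0.54 and 0.54, and Lifr 0.52, 0.30 and 0.33. Among the ligands Cntf rose, at 0.74, 0.54 and 0.76, whereas Lif was at 0.16 ± 0.09 with an adjusted p of 0.208. Of the kinases Jak3 rose to 0.49 ± 0.11, while Jak1 and Jak2 were at 0.02 and -0.01 and did not pass, with signs that changed between settings. Stat3 itself gave 0.55, 0.74 and 0.62. Socs3, the feedback inhibitor that Stat3 induces, gave 1.24, 1.29 and 1.26, among the smallest spreads of the list (SD 0.02). Without array 1 4 of the 24 passed, without array 2 6, without array 3 6 and with the slide as a block 2.

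Of 20 genes of Müller cells at rest, 8 rose and 4 fell (median 0.11). Without array 1 or array 3 5 rose and 2 fell, and with the slide as a block 5 rose and 0 fell. Under median centring 14 were higher and 1 lower (median 0.33, beside 0.08 over all genes). Crym led the rise, followed by the lipid carriers Apoe, at 0.79, 0.94 and 0.85, and Clu, at 0.67, 0.87 and 0.79. The glutamate transporter Slc1a3 rose to 0.45 ± 0.04. Glul, glutamine synthetase, which turns the glutamate taken up by Müller cells into glutamine, fell instead, at -0.68, -0.52 and -0.62 (adjusted p = 0.00322). The water channel Aqp4 (0.26 ± 0.14), the potassium channel Kcnj10 (0.15 ± 0.07) and the retinal binding protein Rlbp1 (0.00 ± 0.08) did not pass. Fitted on the 10PTC arrays alone, Aqp4 and Kcnj10 passed (adjusted p = 0.0208 and 0.0474) and Rlbp1 did not.

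Microglia and macrophage genes rose in 19 of 24 cases and fell in none, with a median of 0.78. The lysosomal protease Ctss gave 1.73, 1.49 and 1.82, the lipid receptor Trem2 1.57, 1.61 and 1.69 and its adaptor Tyrobp 1.38, 1.39 and 1.65. Lyz2 gave 1.48, 1.43 and 1.49. Cx3cr1, the fractalkine receptor, was at 1.07 ± 0.11, and Aif1, which encodes Iba1, at 1.08 ± 0.17. Of the genes that mark resting microglia, P2ry12 rose to 0.37 ± 0.27, and Tmem119 was at 0.17 ± 0.08 and did not pass. Tmem119 did pass in the fit of the 10PTC arrays alone (adjusted p = 0.0353). In pooled tissue, fewer cells of a type and less RNA per cell cannot be told apart, and the same holds for more of either. Neutrophil genes rose in 2 of 10 cases, led by the receptor Csf3r at 0.40 ± 0.08, and their median was -0.08. Of 12 lymphocyte genes none rose, and Cd3e fell to -0.46 ± 0.15 and Cd4 to -0.27 ± 0.14. The shares called in these 2 lists were 20% and 16.7%, below the 27.7% of all genes. Leaving out any of the 3 arrays left 1 neutrophil gene higher and 1 lymphocyte gene lower. Without array 2 1 neutrophil gene was also lower. Without array 1 5 of the 24 microglial genes passed, without array 2 15, without array 3 7 and with the slide as a block 2.

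**Figure D4:**
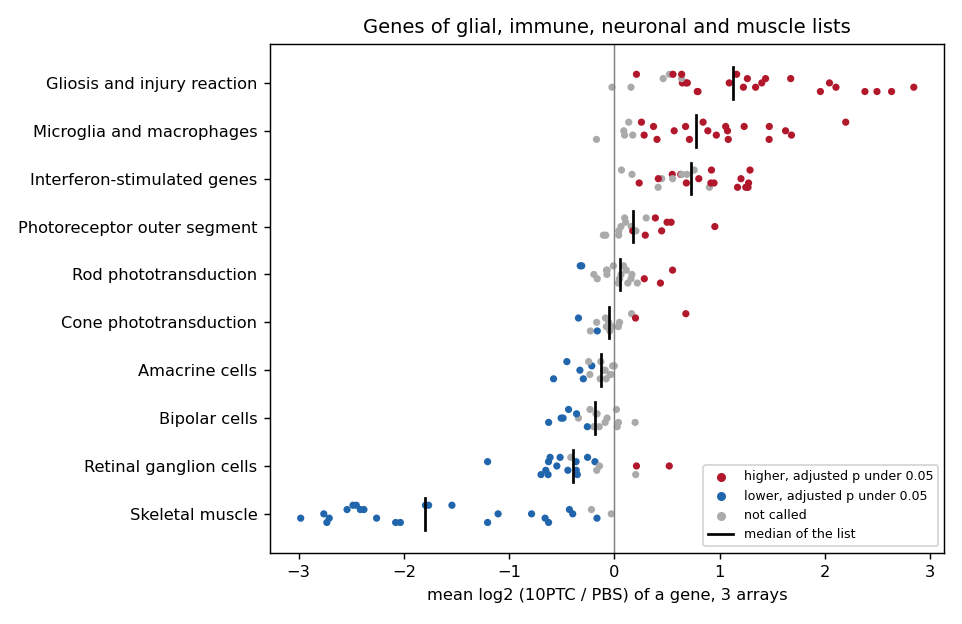
Mean log2 ratio of 10PTC over PBS of each gene in 10 lists, 1 dot for each gene, red if it rose, blue if it fell and grey if it did not pass, with a bar at the median of the list. Glial and immune lists lie right of 0, phototransduction lists around it, and ganglion cell (-0.39) and skeletal muscle (-1.80) lists left of it.

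Interferon-stimulated genes rose in 15 of 24 cases and fell in none, with a median of 0.72 that went from 0.57 on array 1 to 0.74 on array 2 and 0.96 on array 3. Ifit1, an antiviral RNA-binding protein, gave 1.12, 1.09 and 1.66, and Oas1a, a sensor of double-stranded RNA, gave 1.19, 1.18 and 1.44. In both, array 3 was highest. The GTPase Gbp2, which acts against intracellular microbes, gave 0.93, 0.91 and 0.99. Of the transcription factors, Irf8 was at 1.17 ± 0.05 and Irf9 at 0.92 ± 0.12, while Irf7 was at 0.07 ± 0.09 and did not pass. Without array 1 2 of the 24 passed, without array 2 7, without array 3 2 and with the slide as a block 3.

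Promoters of these genes are shown because a motif known to bind interferon-regulated factors recurs in them. The motif, GAAA, then 2 bases of any kind, then GAAA, was searched on both strands in the 250 bases before the start of transcription, as RefSeq gives it on build GRCm38.p6. It lay in 9 of the 18 interferon-stimulated genes with a promoter in the table, and in 3.29% of 14881 tested genes. The 9 genes were Bst2, Gbp2, Gbp3, Ifit1, Ifit3, Isg15, Oas1a, Rsad2 and Stat2. Cxcl10 and B2m, which stand on other lists, also held it. The sequences run 5′ to 3′ along the gene with each match in capitals. Of the STAT motif TTCNNNGAA, searched in the same way and found in 7.43% of tested genes, Socs3 held a match 154 bases before its start. A match describes these letters and not a bound site. The windows were chr19:34640639-34640888 (plus strand) for Ifit1, chr3:142620413-142620662 (plus) for Gbp2, chr5:92348890-92349139 (minus) for Cxcl10, chr2:122147437-122147686 (plus) for B2m and chr11:117969367-117969616 (minus) for Socs3.
Ifit1: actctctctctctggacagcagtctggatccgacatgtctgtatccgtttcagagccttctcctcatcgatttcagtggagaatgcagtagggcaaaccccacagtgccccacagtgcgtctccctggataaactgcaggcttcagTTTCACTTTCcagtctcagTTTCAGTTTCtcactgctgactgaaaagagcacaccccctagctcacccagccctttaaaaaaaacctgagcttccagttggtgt
Gbp2: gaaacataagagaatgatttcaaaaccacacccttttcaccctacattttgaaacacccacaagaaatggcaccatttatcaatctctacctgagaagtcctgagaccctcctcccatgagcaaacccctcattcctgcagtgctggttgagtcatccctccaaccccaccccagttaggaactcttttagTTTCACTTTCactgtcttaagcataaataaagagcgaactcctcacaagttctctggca
Cxcl10: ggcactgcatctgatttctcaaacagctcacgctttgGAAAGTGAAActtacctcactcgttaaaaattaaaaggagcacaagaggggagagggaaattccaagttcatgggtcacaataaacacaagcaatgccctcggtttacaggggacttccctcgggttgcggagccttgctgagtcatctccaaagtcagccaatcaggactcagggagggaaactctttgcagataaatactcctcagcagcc
B2m: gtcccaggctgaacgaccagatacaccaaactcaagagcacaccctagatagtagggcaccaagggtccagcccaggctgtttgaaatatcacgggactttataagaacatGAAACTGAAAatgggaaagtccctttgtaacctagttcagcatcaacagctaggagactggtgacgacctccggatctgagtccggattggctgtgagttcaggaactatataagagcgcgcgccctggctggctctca
Socs3: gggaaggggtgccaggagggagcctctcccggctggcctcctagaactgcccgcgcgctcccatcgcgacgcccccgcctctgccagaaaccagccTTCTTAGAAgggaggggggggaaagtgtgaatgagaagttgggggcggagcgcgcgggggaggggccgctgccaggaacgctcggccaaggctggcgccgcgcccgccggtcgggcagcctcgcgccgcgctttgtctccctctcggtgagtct

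Ifit1 holds the interferon motif at 2 places, 104 and 85 bases before its start, Gbp2 59 bases, B2m 139 bases and Cxcl10 213 bases before it. The same search in the 25 gliosis genes with a promoter found this motif in 4.0% and TTCNNNGAA in 12.0%, and in 19 skeletal muscle genes in 0.0% and 5.26%. In the 18 interferon-stimulated genes TTCNNNGAA was found in 33.3%. In the 21 JAK-STAT3 genes it was found in 4.76%, in Socs3. The AP-1 motif TGANTCA lay in 4 of the 25 gliosis genes and in 6.48% of tested genes.

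Antigen presentation genes rose in 9 of 18 cases and fell in none (median 0.61). The class I chain H2-D1 gave 0.97, 1.13 and 1.04, and its partner B2m gave 1.05, 0.79 and 1.13. Nlrc5, the activator of class I genes, had a mean of 1.504 on its brighter probe, but its other probe gave -0.16. The class II chain H2-Eb1 gave 1.09, 0.60 and 0.50, highest on array 1, whereas Ciita, the activator of class II genes, was at -0.03 ± 0.07 and did not pass. None of the 18 passed without array 1, 1 without array 2 and none without array 3 or with the slide as a block, while the median stayed between 0.52 and 0.68.

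Complement genes rose in 9 of 19 cases and fell in 1 (median 0.40). C4b, a component of the classical pathway, gave 1.51, 1.39 and 1.31, and C1qa, a chain of the protein that starts it, gave 1.35, 1.20 and 1.37. C1qb was at 1.11 ± 0.12 and C1qc at 1.08 ± 0.11. The regulators went both ways, with the protease Cfi at 1.03 ± 0.23, the C1 inhibitor Serping1 at 0.99 ± 0.19 and Cd55, which shields cells from complement, at -0.28 ± 0.08. C3, on which all pathways meet, gave 2.03, 1.58 and 0.31 and did not pass (adjusted p = 0.0581), the widest spread of the list. Without array 1 4 rose and without array 2 6, without array 3 5, and with the slide as a block 2.

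Chemokines and their receptors rose in 9 of 17 cases and fell in 1 (median 0.32). Cxcl10, an interferon-induced ligand for T cells, gave 1.89, 1.40 and 2.04, with array 2 lowest. The monocyte ligands Ccl2 and Ccl12 gave 1.26, 1.03 and 0.99, and 1.07, 0.93 and 1.20. Cx3cl1, the ligand of Cx3cr1 made by neurons, fell, at -0.37, -0.20 and -0.46. Without array 1 5 rose, without array 2 7, without array 3 6 and with the slide as a block 5. Of 19 cytokines and receptors 7 rose and 1 fell: the tumour necrosis factor receptor Tnfrsf1a was at 0.97 ± 0.10, the interleukin-1 receptor Il1r1 at 0.60 ± 0.09 and the alarmin Il33 at 0.60 ± 0.21. Of these 19, 3 rose without array 1, 4 without array 2 or array 3 and 2 with the slide as a block. Of 18 Toll-like receptors and adaptors 6 rose, among them Tlr2 at 0.72 ± 0.05 and the adaptor Myd88 at 0.39 ± 0.04, but 0 rose without array 1, 3 without array 2, 1 without array 3 and 1 with the slide as a block. Lysosomal and uptake genes rose in 11 of 25 cases (median 0.37), with Ctsh at 0.98 ± 0.18 and Lamp2 at 0.59 ± 0.02. The calcium channel of the lysosome, Mcoln1, fell in every array, at -0.57, -0.45 and -0.44. Of the 25 genes 2 rose without array 1, 6 without array 2, 2 without array 3 and 1 with the slide as a block.

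Genes of ganglion cells fell in 14 of 20 cases and rose in 2, with a median of -0.39 and, by array, -0.34, -0.32 and -0.51. The transcription factors that define these cells fell together: Pou4f1 gave -0.60, -0.51 and -0.72, Pou4f2 -0.53, -0.70 and -0.86, Isl2 -0.60, -0.57 and -0.70 and Eomes -0.70, -0.60 and -0.66. The neurofilament Nefl was at -0.63 ± 0.12, the neuronal tubulin Tubb3 at -0.52 ± 0.16 and the RNA-binding Rbpms at -0.26 ± 0.05. The largest fall was that of the calcium buffer Pvalb, at -1.09, -1.10 and -1.42, but Pvalb is also abundant in fast muscle and stands on the muscle list too. The 2 genes that rose were Prph, a filament of regrowing axons, at 0.52 ± 0.17, and Gap43, a growth cone protein, at 0.21 ± 0.06. No gene of the list rose without array 1, 2 or 3, with the slide as a block or in the authors' deposited table. Without array 1 4 of the 20 fell, without array 2 6, without array 3 3 and with the slide as a block 3, with medians between -0.36 and -0.46. Under median centring 9 were lower and 3 higher, with a median of -0.23. Muscle, fat and connective tissue genes fell on the same arrays, and their part in this result was not tested.

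Of 19 genes of axon injury and regrowth 6 rose and none fell (median 0.24). Without array 1 2 rose, without array 2 4, without array 3 3 and with the slide as a block 1. After Ecel1, the stress factor Atf3 gave 1.17, 1.37 and 1.41 and Sprr1a, induced in regrowing neurons, gave 0.93, 1.27 and 1.67. Array 1 was lowest and array 3 highest for Ecel1, Atf3 and Sprr1a. Sprr1a is also made by surface epithelium and stands on that list.

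Among the relay neurons, 6 of 18 bipolar cell genes and 5 of 16 amacrine cell genes fell and none rose, beside 13.3% of all genes that fell. Vsx1, a factor of cone bipolar cells, gave -0.65, -0.51 and -0.71, and Pcp2 and Gng13, G-protein partners in ON bipolar cells, were at -0.49 ± 0.05 and -0.44 ± 0.01. The acetylcholine transporter Slc18a3 of starburst amacrine cells was at -0.45 ± 0.09 and the calcium buffer Calb2 at -0.58 ± 0.19. Of 25 neurotransmitter receptors 9 fell and none rose, among them the AMPA receptor subunit Gria2 at -0.42 ± 0.06. Of 18 potassium and sodium channel genes 8 fell and 1 rose: the auxiliary subunit Scn4b gave -0.60, -0.77 and -0.98, Scn1a was at -0.57 ± 0.10 and Kcna1 at -0.44 ± 0.10. The channel that rose was Scn8a, at 0.74, 0.71 and 0.86, on the brightest of its probes, while the median over its probes was -0.01. The synaptic vesicle list had 3 of 23 genes higher and 4 lower, with a median of -0.04, and under median centring 13 higher and 1 lower, with a median of 0.20 beside 0.08 over all genes. Under median centring the medians of bipolar (-0.06), amacrine (0.04), receptor (-0.02) and channel (0.03) lists lay near 0, against -0.19, -0.13, -0.16 and -0.14 with loess. Without array 1 2 bipolar, 0 amacrine, 0 receptor and 1 channel gene fell, without array 2 2, 1, 4 and 4, without array 3 2, 1, 1 and 0, and with the slide as a block 1, 1, 1 and 0.

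The counts and medians of photoreceptor genes depended on the normalization, and the cone median changed sign with it. With loess, of 20 genes of rod phototransduction 3 rose and 2 fell (median 0.06), and of 14 of cones 2 rose and 2 fell (median -0.05). Under median centring 14 rod genes were higher and 0 lower (median 0.41), and 7 cone genes were higher and 0 lower (median 0.21). In that setting 9647 of all 26136 genes were higher and 5009 lower (median 0.08). Of 22 ribosomal protein genes 19 were higher and 0 lower (median 0.37), so the shift was not particular to photoreceptors. Arrestin, Sag, gave 0.79, 0.24 and 0.62, with array 2 lowest. The channel subunit Cnga1 was at 0.44 ± 0.04, and the cone transducin subunit Gnb3 gave 0.68, 0.61 and 0.75. The blue cone opsin Opn1sw fell to -0.34 ± 0.25, with array 2 lowest at -0.63. Of 17 outer segment and cilium genes 7 rose and none fell (median 0.17), and under median centring 13 were higher (median 0.47). Impg2, a proteoglycan of the matrix around photoreceptors, gave 1.06, 0.83 and 0.97, and the disc proteins Prom1, Prph2 and Rom1 were at 0.50 ± 0.10, 0.39 ± 0.05 and 0.29 ± 0.07. Without array 1 2 of the 17 passed, without array 2 6, without array 3 3 and with the slide as a block 2.

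Skeletal muscle genes fell in 23 of 25 cases, with a median of -1.80 and, by array, -1.69, -1.46 and -1.91. The creatine kinase Ckm gave -1.77, -1.69 and -1.92 and actin Acta1 -1.952, -1.996 and -2.288. Of the 25 genes 20 fell without array 1, 22 without array 2, 20 without array 3 and 18 with the slide as a block. Set against the whole signal of a channel, the 25 genes made up 0.138%, 0.136% and 0.134% of the PBS signal and 0.0372%, 0.0414% and 0.0359% of the 10PTC signal. The PBS channels were alike, and every 10PTC channel held less. Tnnt2, the cardiac form of troponin T, went the other way at 1.54, 1.58 and 1.47; it was chosen after its values were seen.

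Fat tissue genes fell in 9 of 14 cases (median -0.33). Adipoq, the hormone adiponectin, gave -1.90, -1.82 and -1.80, and the fatty acid carrier Fabp4 -1.83, -1.98 and -1.83, with SDs of 0.05 and 0.09. Of 6 red blood cell genes 3 fell, with the globin Hba-a1 at -1.28 ± 0.10 and Alas2, which starts haem synthesis, at -1.25 ± 0.12. Of the red blood cell genes 1 fell without array 1, 2 without array 2, 1 without array 3 and 0 with the slide as a block. Of the fat genes 6 fell without array 1, 8 without array 2 and 6 without array 3 or with the slide as a block.

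Connective tissue genes fell in 12 of 22 cases and rose in 1 (median -0.38). For 10 of those 12, array 2 was nearest 0: collagen Col3a1 gave -2.64, -1.01 and -2.26, the proteoglycan Lum -1.48, -0.71 and -1.34 and Dcn -1.56, -0.96 and -1.80. Col1a1 gave -1.26, -0.99 and -1.40. Fibronectin, Fn1, was at 0.37, 0.56 and 0.41 and did not pass (adjusted p = 0.208), but passed in the fit of the 10PTC arrays alone (adjusted p = 0.00278). The summed signal of the list was 0.127%, 0.129% and 0.129% of the PBS channels and 0.104%, 0.140% and 0.123% of the 10PTC channels, so that on array 2 the 10PTC channel held more. Without array 1 4 fell, without array 2 11, without array 3 6 and with the slide as a block 1.

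The ocular surface epithelium set array 2 apart most. Krt15, a keratin of basal cells, gave -2.74, 0.32 and -1.84, and Krt19 gave -1.84, 0.15 and -1.27. Krt5, the partner of Krt14, gave -2.38, -0.17 and -1.78. With the slide as a block its value was 0.07, above every 10PTC array, since that setting takes its shift from the PTC arrays. None of these 3 keratins passed, though Krt5 did in the fit of the 10PTC arrays alone (adjusted p = 0.0327). Of the 13 genes 3 fell and 2 rose, with Krt14 at -1.11, -0.17 and -0.94 and Sprr1a among those that rose. Without array 2 5 fell, without array 1 or array 3 1, and with the slide as a block 1. In the signal shares the PBS channels held 0.0490%, 0.0490% and 0.0479%, and the 10PTC channels 0.0267%, 0.0387% and 0.0322%. Of 19 lens crystallin and fibre genes none passed, while 5 were higher in the fit of the 10PTC arrays alone. They took 1.48%, 1.59% and 1.25% of the PBS signal and 1.62%, 1.69% and 2.18% of the 10PTC signal, highest on array 3, where Crygc gave 1.54 against 0.91 and 0.23 on arrays 1 and 2. The part of these tissues in the results on retinal genes was not tested.

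**Figure D5:**
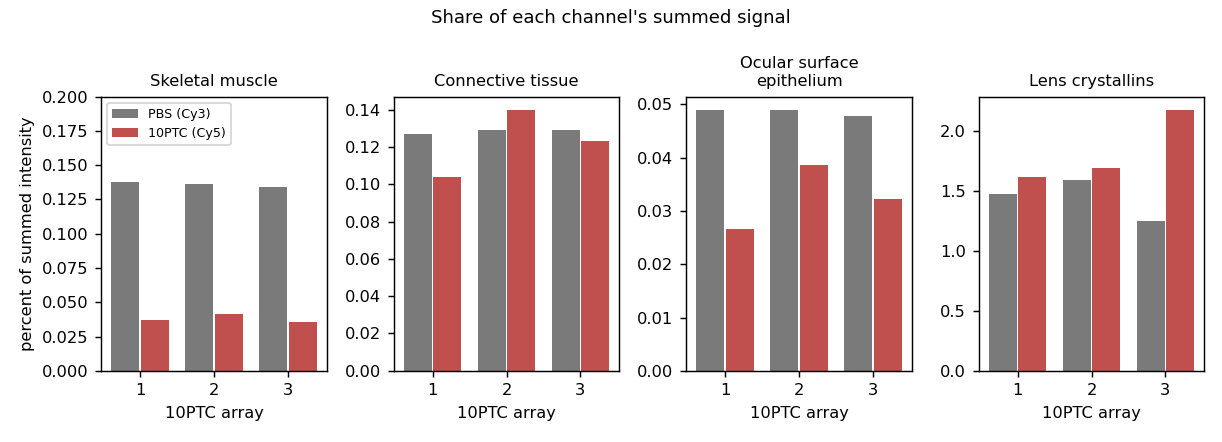
Share of the summed intensity of all tested genes taken by 4 gene lists, in percent, for the PBS channel (grey) and the 10PTC channel (red) of each 10PTC array, with bars starting at 0 and 1 value per bar. The PBS bars of the muscle, connective tissue and epithelium lists are alike on the 3 arrays, while the 10PTC bars vary and are highest on array 2; for lens crystallins the 10PTC bar of array 3 (2.18) is highest.

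Cholesterol synthesis genes fell in 13 of 22 cases and rose in 1 (median -0.27), while under median centring 7 were lower and 3 higher (median -0.08). The sterol sensor Insig1 gave -0.91, -0.43 and -0.87 and Hmgcs1, an early enzyme, -0.48, -0.41 and -0.57. For 12 of the 13 array 2 was nearest 0. Pmvk rose, at 0.45 ± 0.06, and so did Abca1, which exports cholesterol, at 1.03. Srebf2, the factor that drives these genes, was at -0.41 ± 0.02 on its brighter probe and 0.28 on the other. Without array 1 3 fell, without array 2 12, without array 3 3 and with the slide as a block 1. The respiratory chain had 10 of 24 genes lower and 1 higher (median -0.11), led by Cox7c at -0.45, -0.45 and -0.39. Ndufa4 and Cox4i1 fell too, at -0.32 ± 0.06 and -0.24 ± 0.03, but stood at 0.01 and 0.10 under median centring, where the list's median was 0.15. Without array 1 2 fell, without array 2 7, without array 3 2 and with the slide as a block 1. The ATP synthase chain Atp5b was the gene that rose, at 0.21 ± 0.06.

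Stress responses included the unfolded protein response, the cell's answer to misfolded proteins. Of 21 genes of the unfolded protein response 12 rose and 1 fell (median 0.20), with the co-chaperone Dnajc3 at 0.41, 0.46 and 0.36, the kinase Eif2ak3 at 0.38, 0.44 and 0.35 and Atf4, the factor it acts through, at 0.37, 0.55 and 0.38. Without array 1 3 rose, without array 2 9, without array 3 4 and with the slide as a block 3. Under median centring 20 were higher and 0 lower (median 0.42, beside 0.08 over all genes). Of 18 heat shock genes 6 rose and 2 fell, led by Hspa8 at 0.46 ± 0.07. Of the 18, 2 rose without array 1, 3 without array 2, 2 without array 3 and 1 with the slide as a block. Among 21 genes of p53 and apoptosis 6 rose and 1 fell: the death receptor Fas was at 0.77 ± 0.16, the cell cycle inhibitor Cdkn1a at 0.60 ± 0.06 on its brighter probe and 0.04 on the other, and Bax, which opens mitochondria, at -0.48 ± 0.13. The share called was 33.3%, beside 27.7% of all genes, and 1 gene rose without array 1 or array 3, 5 without array 2 and 0 with the slide as a block. Immediate early genes rose in 7 of 19 cases and fell in 2, with Fos at 0.59, 0.42 and 0.75 and Egr1 at 0.44, 0.54 and 0.98. Without array 1 1 rose, without array 2 or array 3 2, and with the slide as a block 0. Of the metallothioneins Mt1 and Mt2 rose to 0.52 ± 0.08 and 0.65 ± 0.10, while the neuronal form Mt3 fell to -0.27 ± 0.17. Of 19 clock genes 6 fell and 2 rose: the output factor Dbp was at -0.42 ± 0.04, Per3 at -0.38 ± 0.05 and the repressor Nr1d1 at -0.37 ± 0.16, while the activators Arntl and Clock were at 0.18 ± 0.12 and 0.19 ± 0.06. Under median centring 6 clock genes were higher and 3 lower (median 0.02). Without array 1 or array 3 3 fell and 0 rose, and with the slide as a block 1 fell. Of 19 endothelial genes 2 rose, with Vwf at 0.70 ± 0.20, and 1 fell. The share called was 15.8%, below the 27.7% of all genes. Leaving out any of the 3 arrays left 1 of the 19 higher, and the slide as a block 0.

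Some genes stood above background in only 1 channel, so their change has only a bound. The dim channel was set to its measured value, or to the dimmest probe above background where it lay below that. Of 19501 genes matched to a symbol, 120 were above background in 10PTC on all 3 arrays and in PBS on none. Another 15 went the other way. Detection alone chose them, and not all have a bound above 1. Cy5, which carried 10PTC on each array, had median signals of 290 to 347, against 215 to 221 in Cy3. The part of this in the counts was not tested. The highest bounds were for the odorant receptor Olfr160, at least 3.36-fold higher, 4930509K18Rik, at least 2.74-fold, and a second odorant receptor, Olfr1040, at least 2.34-fold. Serpina6, a steroid carrier, Egr2, an immediate early factor, and Defb43, a defensin, were at least 2.27-, 2.23- and 2.02-fold higher. These genes were chosen by their detection, so their bounds are a description with no test. Lower in 10PTC were Myh13, the myosin of eye muscles, at least 1.92-fold, the eosinophil ligand Ccl11, at least 1.63-fold, and the factor Lmx1a, at least 1.44-fold. For Serpina6, Egr2 and Ccl11 the bound is the measured ratio itself.

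Against the reference dose no gene passed, 0% of those tested, with a smallest adjusted p of 0.23, although 2132 genes (8.16%) had an unadjusted p under 0.05. Both doses were compared with PBS, and the labels do not say whether they shared PBS pools. With array quality weights 363 genes passed, with trended and robust moderation 2, and without PTC array 3 1. Prss56 had the widest gap of the 12 genes with the smallest p, at 2.40, 2.98 and 2.101 on the 10PTC arrays and 0.74, 0.31 and 0.37 on the PTC arrays, a difference of 2.02 ± 0.22 (SE; adjusted p = 0.23). The 2 groups of arrays do not overlap, but the gene was chosen by the p of this same difference. Adamts19, a matrix protease, stood at 0.77, 0.82 and 0.62 against 0.18, 0.23 and 0.14. Ccn4, a secreted target of Wnt signalling, stood at -0.34, -0.36 and -0.41 against 0.21, 0.33 and 0.31, with a difference of -0.66 ± 0.06. Side by side, the list medians were 1.13 at 10PTC and 1.00 at PTC for gliosis, 0.78 and 0.95 for microglia, 0.72 and 0.81 for interferon-stimulated genes, -0.39 and -0.48 for ganglion cells and -1.80 and -2.14 for skeletal muscle, with no member of these lists called different.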

How the data were processed

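Retinal RNA was measured on 6 2-colour Agilent arrays (design 026655, probes of 60 bases), 3 per dose. The authors' deposited scanner files give intensity per spot, made with Feature Extraction 10.7.3.1 per the file headers, while the submitters' processing notes name 9.3.2.1. The headers define the deposited LogRatio as log10 of Cy5 over Cy3. The authors' deposited value table tracks it with a slope of 3.32, so it was read as log2, and how it was centred is not stated in the sources used here.

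Mean signals were background-corrected (normexp, offset 50), loess-normalized within arrays with control spots at weight 0, and averaged per probe without outlier-flagged spots, in limma 3.58.1 (R 4.3.3). Probes were kept where at least 3 of 6 arrays showed Cy3 or Cy5 well above background, and the brightest probe stood for a gene. All 6 arrays were fitted with a coefficient per dose, and p-values were adjusted by Benjamini-Hochberg over 26136 genes at a threshold of 0.05. The fit was also run on simulated data with independent noise for each gene and array. That run held no effect of dye, slide or shared PBS pool, so it cannot check the fit against these. Probes were named through accessions, symbols and synonyms on GRCm38.p6. Files give probe positions on mm9. Intervals rest on the number of arrays, and nothing says that pools were separate cohorts, so p-values measure the spread between tubes.

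The 63 gene lists and the genes examined were chosen with earlier results of these data known. Named were the 12 genes that rose and the 12 that fell most, members of lists, mostly by smallest p, the genes with the smallest p between doses and those with the highest bounds. Some further list members and the promoter motifs were chosen after their values were seen. A few genes of the lists are counted in them but not reported here by name.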

Additional observations from a re-analysis of the deposited data

Results flagged for a closer look

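In 8 of the genes named for the dose comparison or elsewhere, all 3 10PTC arrays lay on one side of 0 and all 3 PTC arrays on the other. All 8 had been chosen for a small p between the doses, so the split follows in part from that choice. How many of all genes show such a split was not counted. The differences below are 10PTC minus PTC on the log2 scale, with the limma adjusted p of the difference itself, which did not pass in any of them. Ccn4 differed by -0.66 (-0.37 at 10PTC and 0.28 at PTC, adjusted p = 0.23) and BC065403 by -0.78 (-0.43 and 0.35, adjusted p = 0.23). Nkd1, an inhibitor of Wnt signalling, differed by 0.79 (0.60 and -0.19, adjusted p = 0.344). The unnamed transcripts and predicted genes were A930015G24Rik with 0.57 (0.08 and -0.49, adjusted p = 0.344), Gm3448 with -0.50 (-0.08 and 0.42, adjusted p = 0.288), Gm3819 with -0.54 (-0.19 and 0.35, adjusted p = 0.288), ENSMUST00000077161 with -0.50 (-0.22 and 0.28, adjusted p = 0.288) and ENSMUST00000107922 with 0.44 (0.08 and -0.37, adjusted p = 0.432). Groups of 3 arrays are too small for a test of single outlying arrays.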

How the results depend on the processing

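Of 212 genes followed, 22 kept their direction and their side of the threshold under all alternatives, and 12 changed sign under at least 1. Median centring turned Ndufa4 to 0.0088, Cox4i1 to 0.10, Jak2 to 0.21, Lif to -0.17, Ciita to 0.017, ENSMUST00000077161 to 0.0085, Gm3448 to 0.10 and Gm3819 to 0.026. The slide as a block turned Krt5 to 0.069, Ciita to 0.0025 and Jak2 to 0.031, a probe GC correction Ciita to 0.025 and Jak1 to -0.022, offset 0 Rlbp1 to -0.0045 and the median over probes Scn8a to -0.0066. Leaving out 1 array moved Jak1 between -0.012 and 0.049, Ciita between -0.060 and 0.011, Jak2 between -0.043 and 0.017 and Rlbp1 between -0.035 and 0.044. The 7232 calls of 10PTC against PBS (3762 higher, 3470 lower) became 4451 (2250, 2201) with the scanner software's processed signals, 14656 (9647, 5009) with median centring, 4591 (2559, 2032) in the authors' deposited table, 14036 (7067, 6969) with array quality weights, 1005 (597, 408) with the slide as a block, 43 (8, 35) in a treat test against 1.5-fold and 109 (59, 50) when a change of 2-fold on every 10PTC array was asked for with no test. Leaving out 1 array gave 1357 to 9114 calls (769 to 4767 higher, 588 to 4347 lower). With the replicate block 4806 genes were called (2528 higher, 2278 lower). For same-numbered arrays, the deviations from the mean of their dose correlated at -0.27, 0.15 and 0.20. With 3 arrays per dose these values cannot show whether the numbers pair the pools. Between the doses the 0 calls became 363 with array quality weights and 2 with trended and robust moderation, and 0 to 1 when 1 array was left out. The other alternatives kept the count within 1.5 times: no background subtraction, offset 0, Aquantile, scale, both filters, outlier spots kept, the median probe, trended moderation, the 10PTC arrays alone and a GC correction. Slide 2 alone is by design the same fit as the 10PTC arrays alone. Of the 212 genes 121 lost their call with the slide as a block, where the shift between slides comes from the PTC arrays alone. The cause of these differences was not tested. Signal was above background in 10PTC alone for 120 genes and in PBS alone for 15, where a ratio has at most a bound.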
